A study of Homo sapiens with 9 samples.

Results

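The 10 genes described here encode the glucose transporter GLUT1 (SLC2A1) and 9 enzymes that carry glucose to lactate: HK2, GPI, PFKP, ALDOA, TPI1, GAPDH, PGK1, ENO1 and LDHA. They were taken by Ensembl identifier from a table of 61093 genes, and all 10 were found and passed the filter on low values. The RNA came from 9 libraries of cells labelled HepG2, a human liver cancer line. There were 3 libraries from control cells, 3 from cells given SKF-96365 (named an inhibitor in the design text) and 3 from cells given 2-APB (named an agonist there). Both compounds are meant to act on the cation channel TRPV2, and neither dose, duration nor vehicle is given. The value columns of the 2-APB libraries carry the name TRPV2, and they were assigned by the treatment label.

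Glycolysis begins when GLUT1 lets glucose into the cell and a hexokinase traps it by adding a phosphate. The sugar is then rearranged, phosphorylated again and split, and the later enzymes harvest ATP and NADH until pyruvate remains, which lactate dehydrogenase reduces to lactate. Cancer cells often run this route at a high rate with oxygen present, and many of its genes are known targets of the transcription factors HIF-1 and MYC.

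Values are normalized counts: gene counts that the authors divided by a DESeq2 size factor for each library. Depth was 14786059 to 19026545 reads in the 8 libraries where whole reads could be recovered. In principal component 1, which held 43.9% of the variance over 17492 tested genes, control 3, SKF-96365 2 and SKF-96365 3 stood at 48.4 to 48.8 and the other 6 libraries at -43.0 to -3.67, so libraries did not follow their labels. Transcripts that define hepatocytes were nearly missing: ALB lay at 0 to 11.8 normalized counts, and 2 of 14 hepatocyte markers, SERPINA1 and ASGR1, entered the tests. These markers do not bear out the label of a liver line, and the identity of the cells was not tested. KRT8, a keratin of simple epithelia, had a mean of 79421 and the mesenchymal filament gene VIM one of 31329. Of 8 blood and endothelial markers only CDH5 was tested, at 0.105 to 0.813 CPM (its level relative to the library's total). Whether the 3 libraries of a group came from separate cultures is not stated, so p-values measure only the spread between these samples.

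To show the regulatory sequence of 4 genes that were low in the same 3 libraries, and of HK2, which was not, the 250 bases before the RefSeq transcription start are given for 5 genes (GRCh38.p14, gene strand, 5′ to 3′). They are LDHA at chr11:18394313-18394562 (+), ENO1 at chr1:8878687-8878936 (-), GPI at chr19:34364742-34364991 (+), TPI1 at chr12:6867281-6867530 (+) and HK2 at chr2:74833877-74834126 (+). Capitals mark the core of the hypoxia response element, ACGTG or GCGTG, on either strand.
LDHA: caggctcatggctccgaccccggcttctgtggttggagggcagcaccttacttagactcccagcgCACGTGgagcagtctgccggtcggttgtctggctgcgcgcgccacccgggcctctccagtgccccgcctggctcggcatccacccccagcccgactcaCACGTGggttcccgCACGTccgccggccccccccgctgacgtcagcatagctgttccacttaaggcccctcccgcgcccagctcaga
ENO1: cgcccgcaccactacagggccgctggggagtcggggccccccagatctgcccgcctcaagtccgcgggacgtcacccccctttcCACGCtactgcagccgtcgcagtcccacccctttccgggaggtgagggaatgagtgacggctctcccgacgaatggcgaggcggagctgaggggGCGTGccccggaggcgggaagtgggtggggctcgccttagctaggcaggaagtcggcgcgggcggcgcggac
GPI: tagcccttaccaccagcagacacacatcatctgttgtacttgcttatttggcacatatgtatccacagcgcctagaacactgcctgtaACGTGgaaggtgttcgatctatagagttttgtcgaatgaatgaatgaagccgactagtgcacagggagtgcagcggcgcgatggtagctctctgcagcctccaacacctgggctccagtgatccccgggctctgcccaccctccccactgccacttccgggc
TPI1: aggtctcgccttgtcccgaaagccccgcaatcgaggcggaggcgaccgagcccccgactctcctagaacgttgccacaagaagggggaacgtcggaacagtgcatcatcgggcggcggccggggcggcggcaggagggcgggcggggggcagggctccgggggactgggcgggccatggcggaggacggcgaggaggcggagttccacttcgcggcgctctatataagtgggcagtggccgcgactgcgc
HK2: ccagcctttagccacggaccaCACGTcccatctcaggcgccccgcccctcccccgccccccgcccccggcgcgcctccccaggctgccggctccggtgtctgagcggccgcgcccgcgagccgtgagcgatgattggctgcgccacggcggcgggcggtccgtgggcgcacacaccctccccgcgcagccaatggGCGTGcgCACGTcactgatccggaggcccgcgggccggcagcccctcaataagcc
The LDHA window held 5 such matches, and 4 of them come from 2 palindromic E-boxes (CACGTG), each counted on both strands. They began 185, 184, 87, 86 and 73 bases before the start. ENO1 held matches 166 and 72 bases before its start, GPI held 1 at 162, and HK2 held 3, at 229, 55 and 48. TPI1 held none. In the window nearest the principal transcript's start, 7 of the 10 genes had at least 1 core match (HK2, GPI, ALDOA, GAPDH, PGK1, ENO1 and LDHA), and SLC2A1, PFKP and TPI1 had none. Of all 35116 promoter windows of this length, 43.2% had one. Some of the 10 genes have several windows: of their 18 windows 14 had a core match. In at least 1 window 9 of the 10 genes had one, PFKP and TPI1 among them. The E-box was found in 3 of the 10 nearest windows (ALDOA, GAPDH and LDHA) and in 6.34% of all windows. A further window of HK2 held it too. The letters TATAAA, 1 form of the TATA box, were found on either strand in SLC2A1 alone of the 10, against 10.7% of all windows. Other forms were not searched for, and the TPI1 window above holds tatataa near its end. The GC box (GGGCGG, both strands) was found in 7 of the 10 nearest windows, against 42.6% of all windows. These are matches of letters, and binding was not measured. The nearest window of GAPDH lies 1337 bases from the start of its principal transcript in GENCODE 29. For PFKP the distance is 450 bases, for SLC2A1 308, for GPI 204, for LDHA 175, for HK2 146 and for PGK1 74. The nearest windows of ENO1, TPI1 and ALDOA meet that start exactly.

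ENO1, GAPDH and LDHA were the most abundant of the 10 transcripts. Per kilobase (kb) of principal transcript, ENO1 had the highest level of the 10, with a 9-library mean of 28945 normalized counts per kb and a range of 26593 to 31649. GAPDH followed at 24579 (20156 to 28331) and LDHA at 15203 (11981 to 17460). TPI1 stood at 6168, PFKP at 3798, PGK1 at 2084 and GPI at 1738 normalized counts per kb. SLC2A1 (729, 613 to 829) and HK2 (439, 282 to 717) had overlapping ranges, as did ENO1 and GAPDH, and PGK1 and GPI. Of the other 8 genes, only ALDOA had a lower mean level per length than SLC2A1 and HK2. The 10 genes together took 0.879% to 1.15% of all normalized counts.

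ALDOA, the aldolase that splits the sugar, was the exception at 54.9 normalized counts per kb (36.5 to 110). Its row is uncertain. In GENCODE 29, 1657 of its 3916 exon bases (42.3%) lie on the same strand as exons of the protein-coding gene model AC093512.2, which itself had a mean of 51.1 normalized counts. How reads shared by overlapping genes were counted is not given in the sources used here. Its values are given, but cannot be read as the level of aldolase A transcripts.

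**Figure D1:**
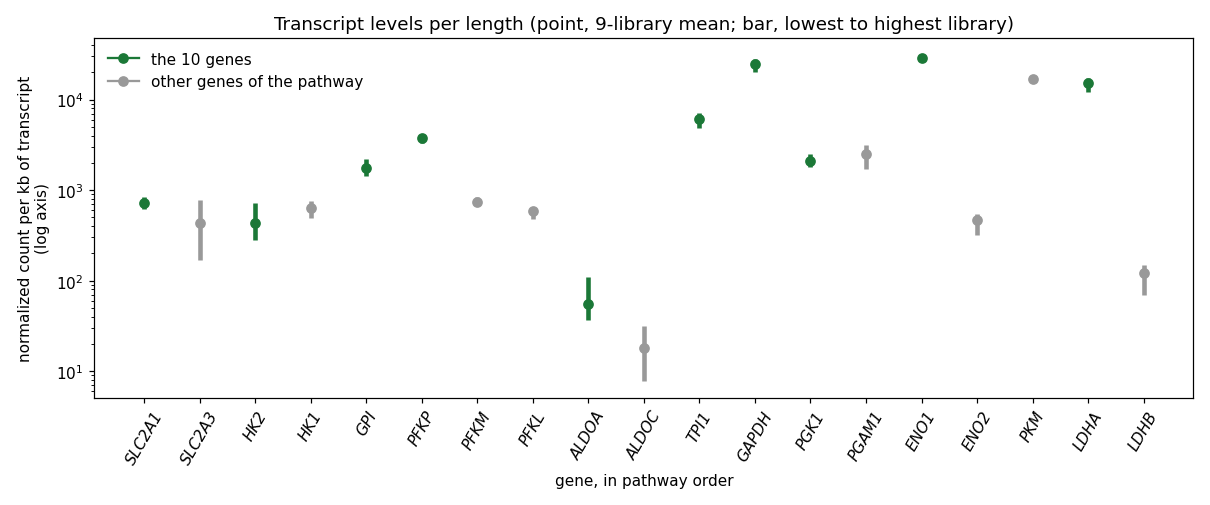
Normalized counts per kb of principal transcript (log axis) for the 10 genes (green) and related pathway genes (grey), with points at the 9-library mean and bars from the lowest to the highest library. ENO1, GAPDH, PKM and LDHA have the 4 highest means, from 15203 to 28945, and ALDOA lies at 54.9.

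Isoform partners of the 10 differed widely in level. PFKP, the platelet-type phosphofructokinase, stood at 3798 normalized counts per kb, PFKM at 736 and PFKL at 581, so the ranges of PFKP and either partner did not overlap. LDHA exceeded LDHB (122 normalized counts per kb), ENO1 exceeded ENO2 (466), and HK1 (630) was near HK2 (439). For LDHB, 33.4% of exon bases are shared on the same strand with AC010197.2, so its level carries the same doubt as that of ALDOA. The 2 steps not covered by the 10 genes, phosphoglycerate mutase (PGAM1) and pyruvate kinase (PKM), stood at 2510 and 16963 normalized counts per kb.

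The comparison of SKF-96365 with control asks what the compound called an inhibitor did to these transcripts. None of the 10 genes passed the test. In bulk RNA, fewer cells with a transcript and less transcript per cell cannot be told apart. In limma, 0 of the 10 had an adjusted p under 0.05, against 0.0% of the 17492 genes, and 0 of the 10 had an unadjusted p under 0.05, against 4.0%. The smallest adjusted p among the 10 was 0.789 (HK2). Their log2 fold changes had a median of -0.05, with 4 positive and 6 negative, beside a median of 0.00 over all genes. HK2 and PFKP were higher in all 3 SKF-96365 libraries than in all 3 controls, which makes 2 of 10 genes against 3.26% of all genes. No gene of the 10 was lower without overlap (2.94% of all genes, and 6.2% in either direction).

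HK2 (chr2:74833981-74893359, plus strand) encodes hexokinase 2, the inducible enzyme that commits glucose to the cell. It stood at 2368, 1749 and 2440 normalized counts in control 1 to 3, at 4141, 2721 and 2703 in SKF-96365 1 to 3, and at 1627, 1711 and 3341 in 2-APB 1 to 3. SKF-96365 1 and 2-APB 3 were the 2 highest libraries, and the 2-APB libraries ranged from below every control to above every control. The control mean was 2185 ± 380, the SKF-96365 mean 3189 ± 825 and the 2-APB mean 2226 ± 966 (SD, n = 3). The log2 fold change was 0.53 (SE 0.28) for SKF-96365 against control, which did not pass limma's test (adjusted p = 0.789). Without SKF-96365 1 it was 0.33, over 1.5 times smaller.

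PFKP (chr10:3066333-3137712, plus strand) encodes a phosphofructokinase, the main regulated step of the pathway. Its values were 9977, 8837 and 10451 normalized counts in the controls, 10653, 10583 and 10871 with SKF-96365, and 9338, 9160 and 10842 with 2-APB. The SKF-96365 libraries lay close together (10702 ± 150, SD, n = 3) and just above the highest control. The log2 fold change was 0.14 (SE 0.11, limma adjusted p = 0.791), a difference of the size of the spread between controls (9755 ± 830, SD, n = 3). Without control 2 it was 0.0676.

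**Figure D2:**
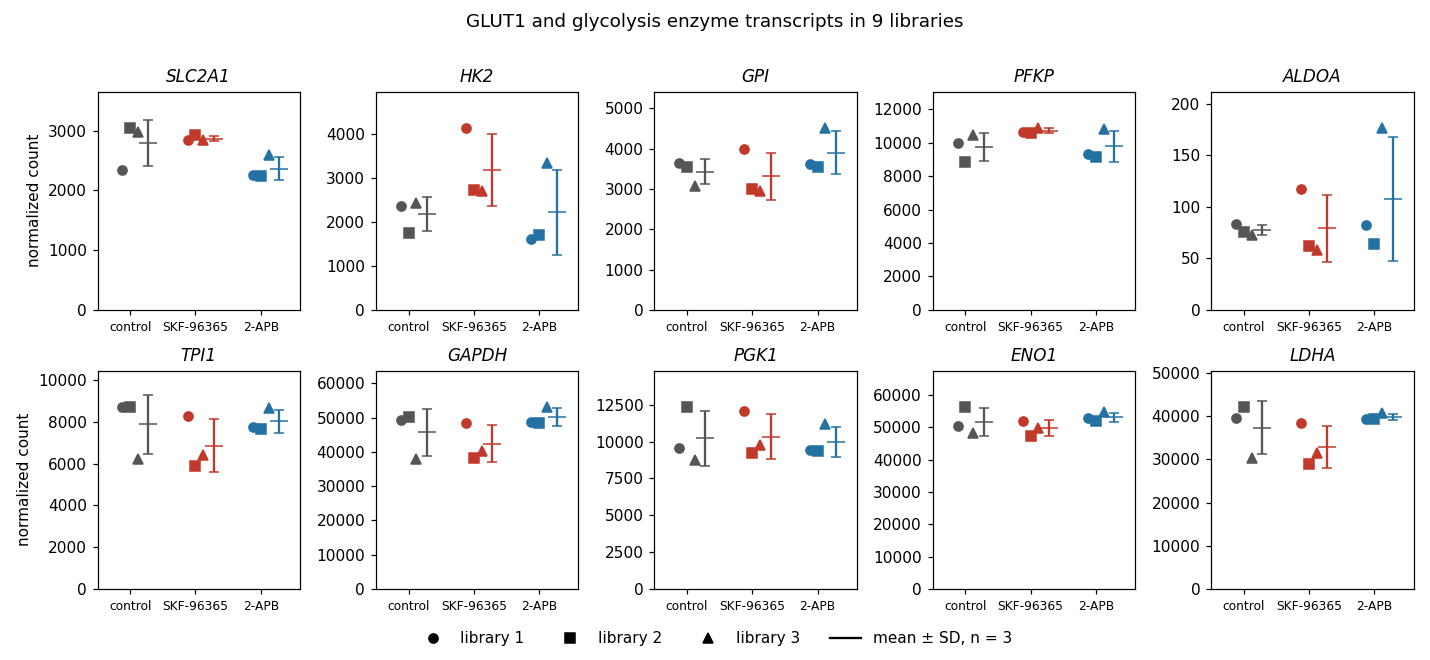
Normalized counts of the 10 genes in each library, by group, with the mean and SD of 3 libraries beside the points and axes that start at 0. Library numbers are names and pair no libraries. SKF-96365 libraries of HK2 and PFKP lie above the controls, and in TPI1, GAPDH and LDHA control 3 lies with SKF-96365 2 and 3.

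The other 8 genes did not separate SKF-96365 from control. TPI1 (chr12:6867119-6870948, plus strand), which interconverts the 2 triose phosphates, stood at 8723, 8698 and 6235 normalized counts in control 1 to 3, at 8286, 5911 and 6403 in SKF-96365 1 to 3, and at 7755, 7658 and 8661.5 in 2-APB 1 to 3. Control 3, SKF-96365 2 and SKF-96365 3 were the 3 lowest libraries. The log2 fold change was -0.20 (SE 0.17, limma adjusted p = 0.791) for SKF-96365 against control. It ran from -0.36 without control 3 to -0.10 without SKF-96365 2.

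GAPDH (chr12:6533927-6538374, plus strand), the enzyme that makes NADH in this pathway and a common reference gene in expression assays, stood at 49307, 50070 and 37792 normalized counts in the controls. It stood at 48543, 38326 and 40207 with SKF-96365 and at 48854, 48548 and 53121 with 2-APB. The same 3 libraries were the lowest. Group means were 45723 ± 6879, 42358 ± 5438 and 50174 ± 2556 (SD, n = 3), with a log2 fold change of -0.11 (SE 0.16, limma adjusted p = 0.847) for SKF-96365 against control. It ran from -0.24 without control 3 to -0.03 without control 2.

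LDHA (chr11:18394388-18408425, plus strand), which turns pyruvate to lactate, stood at 39604, 42184 and 30371 normalized counts in the controls, at 38347, 28947 and 31594 with SKF-96365, and at 39406, 39341 and 40770 with 2-APB. Control 3 again lay with SKF-96365 2 and 3, and SKF-96365 1 lay with control 1. The log2 fold change for SKF-96365 against control was -0.18 (SE 0.16, limma adjusted p = 0.792), and ran from -0.32 without control 3 to -0.08 without control 2.

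ENO1 (chr1:8861000-8879250, minus strand), the enolase of most tissues, makes phosphoenolpyruvate. It stood at 50577, 56366 and 48174 normalized counts in the controls, at 52132, 47362 and 49885 with SKF-96365, and at 52853, 51898 and 54714 with 2-APB. GPI (chr19:34359480-34402413, plus strand), which turns glucose 6-phosphate into fructose 6-phosphate, stood at 3650, 3555 and 3073 in the controls, at 3993, 3006 and 2944 with SKF-96365, and at 3618, 3560 and 4514 with 2-APB. In both genes control 3, SKF-96365 2 and SKF-96365 3 were the 3 lowest libraries. Their log2 fold changes for SKF-96365 against control were -0.05 (ENO1, limma adjusted p = 0.908) and -0.06 (GPI, limma adjusted p = 0.916).

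PGK1 (chrX:77910739-78129296, plus strand), the first step that yields ATP, stood at 9532, 12355 and 8756 normalized counts in the controls, at 12049, 9193 and 9790 with SKF-96365, and at 9418, 9390 and 11163 with 2-APB. Its highest libraries were control 2 and SKF-96365 1, and its groups overlapped in every comparison. SLC2A1 (chr1:42925375-42959176, minus strand), the GLUT1 transporter, stood at 2344.5, 3044 and 2974 in the controls and at 2843, 2920 and 2840 with SKF-96365, a log2 fold change of 0.05 (SE 0.12, limma adjusted p = 0.910). ALDOA (chr16:30064164-30070457, plus strand) stood at 83.1, 76.1 and 73.0 in the controls, at 117, 61.7 and 58.5 with SKF-96365, and at 82.2, 64.4 and 177 with 2-APB. SKF-96365 1 and 2-APB 3 were its highest libraries.

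The comparison of 2-APB with control asks the same of the compound called an agonist. Here too no gene passed. All 10 adjusted p in limma were 0.9995, with 0 of 10 at an adjusted p under 0.05 (0.0% of all genes) and 0 of 10 at an unadjusted p under 0.05 (2.8%). The 10 log2 fold changes had a median of 0.04, with 7 positive, beside 0.00 over all genes. All 10 genes overlapped between the groups, while 3.61% of all genes were higher without overlap and 7.57% lay apart in either direction. SLC2A1 had the lowest unadjusted p of the 10, 0.0929, with a log2 fold change of -0.23 (SE 0.12). Its 2-APB libraries stood at 2258, 2249 and 2590 normalized counts, and control 1 (2344.5) lay among them.

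With all libraries scaled to the same total, 9 of the 10 genes were positive in this comparison, as with upper-quartile scaling, against 7 with the authors' size factors. Total scaling also moved the median of all genes from 0.00 to 0.05. HK2 and PGK1 changed sign under these scalings, and both lay within 0.05 of 0. Without 2-APB 3, the median of the 10 genes was -0.04 and 4 were positive.

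The direct comparison of 2-APB with SKF-96365 gave the lowest unadjusted p of the 10 genes, 0.0467 for SLC2A1. Again 0 of 10 passed at an adjusted p under 0.05 (0.0% of all genes), and 1 of 10 had an unadjusted p under 0.05, against 7.3% of all genes. The median log2 fold change of the 10 was 0.17, with 6 positive, beside 0.01 over all genes. Without 2-APB 3 it was 0.01, with 5 positive. Without SKF-96365 2 it was 0.10. SLC2A1 was lower in all 3 2-APB libraries than in all 3 SKF-96365 libraries (1 of 10, against 8.79% of all genes). GAPDH and LDHA were higher (2 of 10, against 8.21%). In either direction this is 3 of 10 genes, against 17.0% of all genes.

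For SLC2A1, the SKF-96365 mean was 2868 ± 45.4 normalized counts and the 2-APB mean 2366 ± 194 (SD, n = 3). The log2 fold change was -0.28 (SE 0.12, limma adjusted p = 0.684), and -0.35 to -0.25 with any 1 library left out. For HK2 the difference was -0.57 (SE 0.28, limma adjusted p = 0.694). It was -0.90 without 2-APB 3, which lay above both lower SKF-96365 libraries, and -0.37 without SKF-96365 1. For LDHA the difference was 0.28 (limma adjusted p = 0.700), for GAPDH 0.25 (adjusted p = 0.702), for GPI 0.24 (adjusted p = 0.704) and for TPI1 0.24 (adjusted p = 0.721). Without SKF-96365 1, both GPI and TPI1 stood at 0.38, and the lowest values were 0.13 for GPI without 2-APB 3 and 0.14 for TPI1 without SKF-96365 2. PFKP (-0.13), PGK1 (-0.05), ENO1 (0.10) and ALDOA (0.38) did not pass either, and their groups overlapped.

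**Figure D3:**
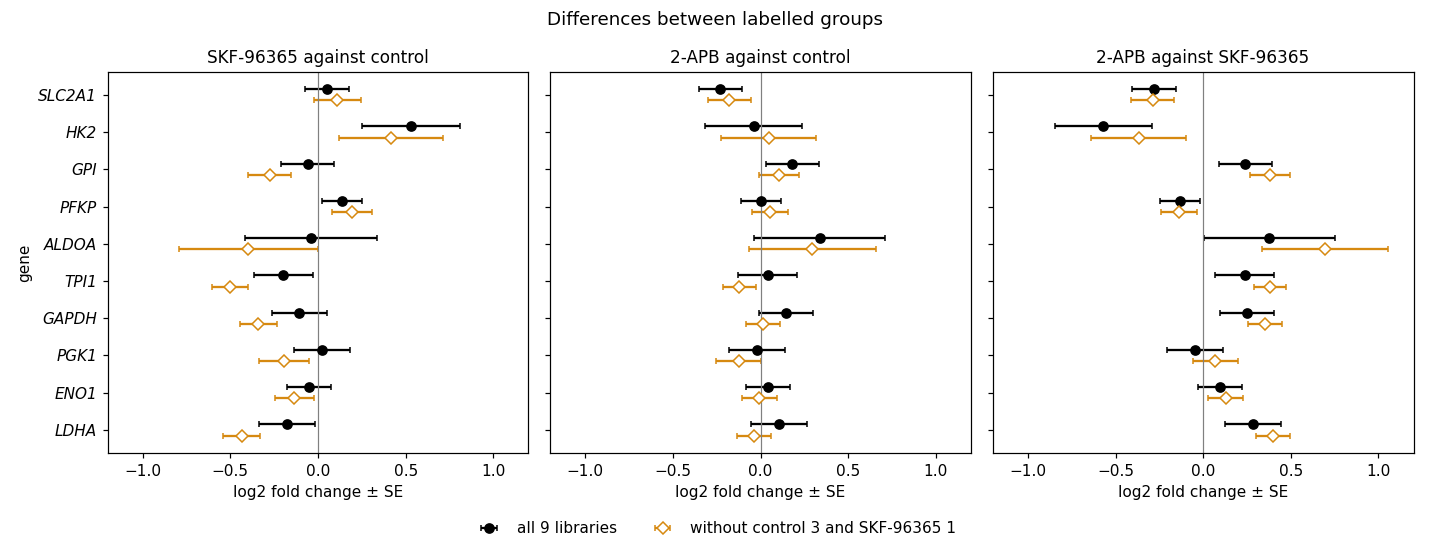
Log2 fold changes with standard errors of the 10 genes in the 3 comparisons, from all 9 libraries (filled) and without control 3 and SKF-96365 1 (open). TPI1, GAPDH and LDHA move from -0.20, -0.11 and -0.18 to -0.50, -0.34 and -0.43 for SKF-96365 against control when both libraries are left out.

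Across libraries, 2 patterns crossed the labels. In the first, 5 of the 10 genes (GPI, TPI1, GAPDH, ENO1 and LDHA) were lower in control 3, SKF-96365 2 and SKF-96365 3 than in all other 6 libraries, as were 17.6% of all genes. None of the 10 was higher there (16.4% of all genes). PGAM1, the mutase between PGK1 and ENO1, shared it: it stood at 3412, 3154 and 3249 normalized counts in these 3 libraries and at 4589.5 to 5742 in the other 6. PKM overlapped, at 41939 to 48859 in all 9. These 3 libraries were singled out because they stand apart on principal component 1, so the counts are a description and no test was made.

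All 16 genes of a DNA replication list were lower in the same 3 libraries. Among them the helicase loading gene CDC6 had 615, 549 and 635 normalized counts in them, and 1309 to 2582 elsewhere. The summed level of the list was 1078 to 1130 CPM in these 3 and 1752 to 2518 CPM in the other 6. Of the 4 tested epithelial markers, KRT8 and KRT18 were lower there and KRT19 was higher. KRT18 stood at 32910 to 34472 normalized counts in these 3 libraries and at 38311 to 49656 in the other 6. The summed epithelial level, in which the abundant KRT8 and KRT18 weigh most, was 6532 to 6920 CPM against 7483 to 8743. The mean centred log2 level of the 4 epithelial markers, which weighs each gene equally, overlapped. It ran from -0.15 to 0.34 in these 3 libraries and from -0.35 to 0.26 in the rest, and its highest value was that of control 3. Of the 7 tested mesenchymal markers 1 was higher, COL3A1, at 902 to 1006 against 262 to 745, and their summed levels overlapped. The part of these genes in the pattern of the glycolysis genes was not tested.

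In the second pattern, SKF-96365 1 and 2-APB 3 stood above all other 7 libraries for HK2, GPI and ALDOA, which makes 3 of 10 genes against 6.44% of all genes, and 2 of 9 without the uncertain ALDOA row. None of the 10 was lower in both (7.2%). These 2 libraries were singled out after the values of the 10 genes were seen, so the counts restate what picked them. The mean centred log2 level of the 10 genes, ALDOA included, was 0.22 in SKF-96365 1 and 0.28 in 2-APB 3, and between -0.15 and 0.04 in the other 7. PDK1, a kinase that closes the entry of pyruvate into mitochondria, followed the same order, with 1540 and 1573 normalized counts in these libraries and 728 to 996 elsewhere. Of the 15 genes of pyruvate entry, 3 were higher in both libraries, PDK1 among them, and 4 were lower (6.44% and 7.2% of all genes). Markers of other cell types moved too. VIM stood at 39662 and 44039 in these libraries and at 25957 to 35036 in the other 7, and ASGR1 was also higher there. PDGFRB, a receptor of mesenchymal cells, was lower, at 303.1 and 392.4 against 496 to 957. Of the 7 tested mesenchymal markers 1 was higher and 1 lower. Their summed level, in which the abundant VIM weighs most, was 2477 and 2780 CPM against 1702 to 2186. Their mean centred log2 level, which weighs each gene equally, was -0.59 in SKF-96365 1 and -0.05 in 2-APB 3. On that measure SKF-96365 1 was the lowest library, and the other 7 lay between -0.45 and 0.30. The part of these markers in the pattern was not tested. Among the 5 tested genes outside the list whose log2 levels were most like the mean of the 10 were ODF2 (r = 0.984), MRPS18B (0.980), CYB5R2 (0.978) and HSPA5 (0.973). These are Pearson coefficients over 9 libraries that share size factors with the 10, ranked among 12371 genes with a mean of at least 50. They serve as a measure of likeness only, to a mean that includes the uncertain ALDOA row. The 10 genes did not share 1 profile: r between pairs of them ran from -0.57 (PFKP and LDHA) to 0.98 (GAPDH and LDHA). HSPA5, a chaperone of the endoplasmic reticulum, stood at 31405 normalized counts in SKF-96365 1, 30677 in 2-APB 3 and 21390 to 26639 in the other 7.

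**Figure D4:**
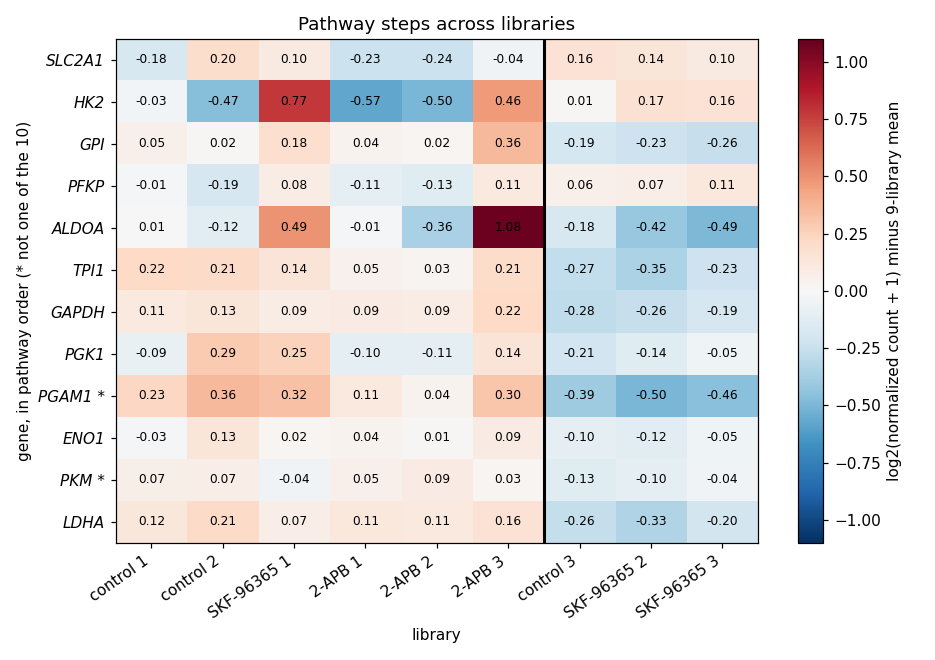
Log2(normalized count + 1) minus the 9-library mean for the 10 genes and for PGAM1 and PKM, in pathway order, with control 3, SKF-96365 2 and SKF-96365 3 right of the black line. GPI, TPI1, GAPDH, PGAM1, ENO1 and LDHA are below 0 in all 3 of these, and HK2, GPI and ALDOA are highest in SKF-96365 1 and 2-APB 3.

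Since control 3 stood with SKF-96365 2 and 3, and SKF-96365 1 with the other libraries, the comparisons were repeated without control 3 and SKF-96365 1. Whether a label was exchanged was not tested, and every group mean and fold change given here follows the labels as deposited. Those 2 libraries were chosen because of where they stood, so the resulting p-values are too small, and control and SKF-96365 keep 2 libraries each. For SKF-96365 against control, TPI1 (log2 fold change -0.50, limma adjusted p = 0.00767), LDHA (-0.43, adjusted p = 0.0159) and GAPDH (-0.34, adjusted p = 0.0421) were then called lower. That is 3 of 10 genes, against 14.5% of all genes called lower and 13.1% called higher. GPI (-0.28, adjusted p = 0.124), HK2 (0.41, adjusted p = 0.326) and PFKP (0.19, adjusted p = 0.236) were not called, nor were the other 4 genes. For 2-APB against SKF-96365, LDHA (0.40, adjusted p = 0.0286), TPI1 (0.38, adjusted p = 0.0288) and GAPDH (0.35, adjusted p = 0.0445) were called higher, against 6.44% of all genes called higher and 6.61% called lower. GPI (0.38, adjusted p = 0.0540) was just short of the threshold. For 2-APB against control 0 of 10 were called (0.0% of all genes in either direction). Leaving out control 3 alone called 111 genes higher and 62 lower for SKF-96365 against control, with 0 of the 10 among them (0.635% and 0.354% of all genes). LDHA then stood at -0.32 (adjusted p = 0.200) and TPI1 at -0.36 (adjusted p = 0.168). The same fit called 0.0229% of all genes lower for 2-APB against SKF-96365, with 0 of the 10 among them.

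Ratios of isoform genes within a library do not depend on its size factor. The log2 ratio of HK2 to HK1 was 0.03, -0.01 and 0.15 in control 1 to 3, then 0.60, 0.31 and 0.19 in SKF-96365 1 to 3, and -0.36, -0.39 and 0.40 in 2-APB 1 to 3. It was higher in every SKF-96365 library than in every control, by 0.31 between means (0.19 without SKF-96365 1), while the 2-APB libraries spanned both. The log2 ratio of PFKP to PFKL was 2.54 to 2.69 with SKF-96365 and 2.44 to 2.50 with 2-APB, which did not overlap, and 2.35 to 2.84 in the controls, which held both ranges. The LDHA to LDHB ratio (7.63 to 8.29), the ENO1 to ENO2 ratio (4.99 to 5.97) and the PFKP to PFKM ratio (1.84 to 2.28) overlapped between all groups.

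The widest swing was that of GLUT1 against GLUT3. The log2 ratio of SLC2A1 to SLC2A3 was 1.84, 2.05 and 0.05 in control 1 to 3, then 0.89, -0.06 and -0.08 in SKF-96365 1 to 3, and 0.88, 0.90 and 1.52 in 2-APB 1 to 3. Control 3, SKF-96365 2 and SKF-96365 3 were again the 3 lowest. Of the pair, SLC2A3 had the wider range. It stood at 2876, 3039 and 3005 normalized counts in these 3 libraries and at 655 to 1530 in the other 6, beside 2249 to 3044 over all 9 for SLC2A1. The ALDOA to ALDOC ratio was higher with SKF-96365 (1.74 to 1.93) than in control (0.29 to 1.24). Of this pair, ALDOA had a log2 fold change of -0.04 and ALDOC one of -1.07 (limma adjusted p = 0.789). ALDOC was low, at 15.4 to 61.9 normalized counts, and the ALDOA row is uncertain.

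**Figure D5:**
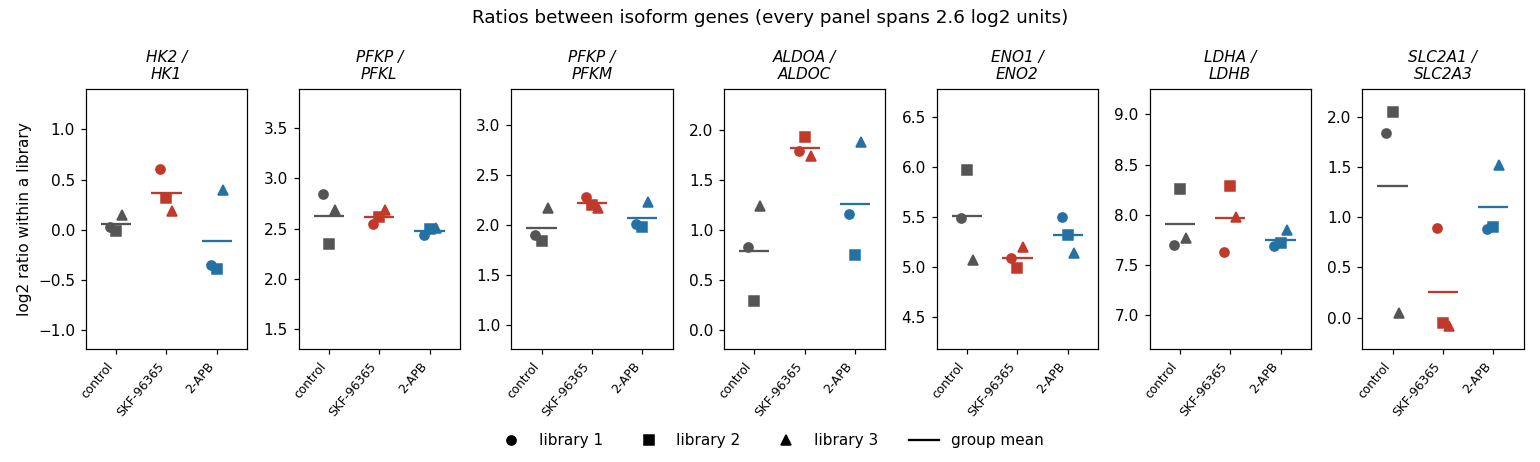
Log2 ratio of each gene to its isoform partner in every library, with lines at group means and all panels on a span of 2.6 log2 units. The SLC2A1 to SLC2A3 ratio runs from -0.08 in SKF-96365 3 to 2.05 in control 2.

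Other genes of glucose use behaved like the 10 in that none passed the test in any comparison: 0 of 18 tested isoforms and further steps, 0 of 12 transporters, 0 of 15 genes of pyruvate entry, 0 of 4 of gluconeogenesis, 0 of 16 of glycogen and side branches, 0 of 18 regulators and 0 of 19 further HIF targets. For SKF-96365 against control, 7 of the 18 isoforms and further steps were positive (median -0.05), as were 9 of the 12 transporters (0.13), 8 of the 15 pyruvate genes (0.02), 11 of the 18 regulators (0.10) and 16 of the 19 HIF targets (0.30). For 2-APB against control, 15 of the 19 HIF targets were positive (0.16). Over all genes, 8652 of 17492 and 8695 of 17492 were positive in these comparisons, which share their controls. Of the 19 HIF targets, 5 were higher without overlap for SKF-96365 against control, where all genes gave 3.26%. For 2-APB against control 4 were higher without overlap (3.61% of all genes), and for 2-APB against SKF-96365 5 were lower (8.79%). By library, the mean centred log2 level of the 19 was -0.33, -0.32 and 0.12 in control 1 to 3. It was 0.21, 0.15 and 0.12 in SKF-96365 1 to 3, and 0.003, -0.001 and 0.05 in 2-APB 1 to 3. Of the 19, 6 were higher and 2 lower in control 3, SKF-96365 2 and SKF-96365 3 than in the other 6 libraries (16.4% and 17.6% of all genes). The 10 glycolysis genes, many of them HIF targets themselves, had medians of -0.05 for SKF-96365 and 0.04 for 2-APB against control.

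In control 3, SKF-96365 2 and SKF-96365 3, 2 of the 18 isoforms and further steps were higher than in the other 6 libraries and 2 were lower, while 5 of the 18 regulators were higher and 1 was lower (16.4% and 17.6% of all genes). PFKFB3, which makes the activator of phosphofructokinase, stood at 3960, 3855 and 3825 normalized counts in these 3 libraries and at 2027 to 2657 in the other 6. EPAS1, which encodes HIF-2 alpha, stood at 6157, 6475 and 6423 in those 3 and at 1521 to 2516 elsewhere. TXNIP, an inhibitor of glucose uptake, stood at 1842, 1944 and 2044 against 404 to 1326. MYC stood at 4373, 4700 and 4693 against 1679 to 2172. PFKFB3, EPAS1, TXNIP and MYC were thus high in the libraries where TPI1, GAPDH, ENO1 and LDHA were low, and any link was not tested. HIF1A, which encodes HIF-1 alpha, overlapped, at 3941, 4146 and 4491 against 2461 to 4277. It was lower in all 3 2-APB libraries (2461 to 3217) than in all 3 controls (3593 to 4277), as were 3.97% of all genes. Its log2 fold change there was -0.46 (limma adjusted p = 0.9995). HKDC1, a further hexokinase, was lower in all 3 2-APB libraries (2499 to 2776) than in all 3 controls (3306 to 3574), with a log2 fold change of -0.39 that did not pass limma's test (adjusted p = 0.9995). SLC16A3, the lactate exporter MCT4, overlapped between all groups. Control 3, SKF-96365 2 and SKF-96365 3 were its 3 lowest libraries (6442, 5571 and 5660, against 6601 to 7445 in the other 6).

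TRPV2, the named target, was itself low, at 51.7 to 209 normalized counts. It stood at 112, 51.7 and 191 in the controls, 169, 209 and 189 with SKF-96365, and 95.4, 102 and 137 with 2-APB. Its log2 fold changes of 0.85 for SKF-96365 and 0.09 for 2-APB did not pass limma's test (adjusted p = 0.789 and 0.9995). Its transcript does not check the action of either compound.

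Processed pseudogenes of these enzymes are near copies and can take or lend reads. Of 84 listed, 2 had a mean of at least 50 normalized counts: GAPDHP1 at 259, which is 0.563% of GAPDH, and TPI1P1 at 90.1, which is 1.19% of TPI1. How multimapping reads were handled is not given in the sources used here.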

How the data were processed

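RNA was sequenced from 9 libraries, per the labels' protocols with a SMARTer mRNA kit. Values were deposited as a normalized signal: per the submitters' processing notes the authors used DESeq2 (version not given), and per the labels the values are gene counts divided by its size factors. Aligner, counter, strand setting and genome build are not given in the sources used here. Symbols were matched by Ensembl identifier for 60593 of 61093 genes, 130 of them through GENCODE 29. Every mapped column was used, and 0 were left unmapped.

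Differences were tested with limma 3.58.1 (R 4.3.3, intensity trend, two-sided) on log2(normalized count + 1) over 17492 genes with at least 10 in at least 3 libraries. The 3 groups shared 1 spread per gene, and Benjamini-Hochberg adjusted p under 0.05 was the threshold. Fold changes are on this log2(value + 1) scale, which understates low genes. The script was tested on simulated data. All values above 0 were whole multiples of the library's smallest value, within 0.001 of a read (100%), so whole reads were recovered in 8 libraries for edgeR 4.0.16 and DESeq2 1.42.0. For SKF-96365 3 the step of 0.992 is too near 1 to tell from rounding, and these count models leave it out.

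The genes and lists were chosen with earlier results of these data known. Named were the 10 genes, their isoform partners, TRPV2, list members with the highest mean or largest fold change (mean of at least 50), the 5 genes most like the 10 (of which 1 is not reported here), and abundant pseudogenes. PGAM1, MYC and HIF1A were named after their values were seen. Groups overlap unless all values of 1 lie above all of the other. Promoter windows came from RefSeq (GRCh38.p14), and transcript lengths, gene spans and exon overlaps from GENCODE 29 (GRCh38). Alternatives were pseudocounts of 0.5 and 5, no filter or a mean of at least 50, total and upper-quartile scaling, fits of only 2 groups, a block for the replicate number, 1 library or a pair of libraries left out, and both count models.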

Additional observations from a re-analysis of the deposited data

How the results depend on the processing

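With the alternatives other than leaving out 1 library, 307 of 330 log2 fold changes of the 10 genes kept their direction and their side of the threshold, 17 changed sign and 6 passed the threshold. The 6 were TPI1, GAPDH and LDHA without control 3 and SKF-96365 1. In that fit 4823 genes were called for SKF-96365 against control, with a median of -0.24 for the 10 genes, and 2283 for 2-APB against SKF-96365. Sign changes there were -0.19 (PGK1, SKF-96365 against control), 0.0474 (HK2), -0.12 (TPI1), -0.00680 (ENO1) and -0.0372 (LDHA) for 2-APB against control, and 0.0698 (PGK1, 2-APB against SKF-96365). The SLC2A1 to SLC2A3 ratio moved from -1.06 to -2.01. With edgeR and DESeq2 on 8 libraries, GPI stood at 0.0397 and 0.0357 and ALDOA at 0.22 and 0.21 for SKF-96365 against control, and HK2 at 0.0288 and 0.0302 for 2-APB against control. For 2-APB against control, total and upper-quartile scaling gave 0.00821 and 0.00022 for HK2 and 0.0272 and 0.0192 for PGK1. For 2-APB against SKF-96365, total scaling gave 0.00810 for PGK1. The cause of these changes was not tested, apart from the libraries left out.

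DESeq2 called 2 genes for SKF-96365 against control, 0 for 2-APB against control and 1 for 2-APB against SKF-96365 (241, 350 and 483 at an unadjusted p under 0.05), and edgeR 0, 0 and 0 (258, 367 and 492). limma called 0 genes in each with all libraries (699, 489 and 1277). With only the 2 groups compared, it called 4 genes for 2-APB against SKF-96365. None of these calls was among the 10.

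Leaving out 1 library gave 0 to 173 called genes for SKF-96365 against control (173 without control 3), 0 to 0 for 2-APB against control and 0 to 4 for 2-APB against SKF-96365 (4 without control 3). The medians of the 10 genes ran from -0.15 to 0.04, from -0.04 to 0.12 and from 0.01 to 0.24. Of 270 such fold changes, 26 changed sign. Their ranges for SKF-96365 against control were -0.0693 to 0.119 for SLC2A1, -0.200 to 0.0200 for GPI, -0.358 to 0.136 for ALDOA, -0.0907 to 0.169 for PGK1 and -0.102 to 0.0115 for ENO1. For 2-APB against control they were -0.374 to 0.145 for HK2, -0.0734 to 0.0546 for PFKP, -0.0859 to 0.634 for ALDOA, -0.121 to 0.122 for TPI1, -0.124 to 0.124 for PGK1, -0.00680 to 0.106 for ENO1 and -0.0372 to 0.200 for LDHA. For 2-APB against SKF-96365 they were -0.0444 to 0.695 for ALDOA and -0.128 to 0.0698 for PGK1.

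Deviations of libraries with the same number were mixed, from r = 0.50 (control 1 and SKF-96365 1) and 0.37 (control 3 and SKF-96365 3) to -0.35 (SKF-96365 3 and 2-APB 3), so numbers were not read as pairs. With the replicate number as a block, limma called 0, 0 and 0 genes (717, 431 and 1259 unadjusted). Depth limits ALDOA most, at 58.5 to 177 normalized counts.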
